A study of Mus musculus with 2 samples.

Results

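The 8 genes Stom, Ache, Tspan33, Btnl10, Cacna1g, Tmcc2, Ptp4a3 and Hemgn are described here in the G1E cell line, out of 43346 genes in the deposited tables. They were chosen by the estimated counts themselves, as genes tied to red cell maturation that were to be much higher in replicate 2 than in replicate 1 after scaling for library size. That difference is therefore a description and is given without a test. All 8 had a row in both tables, on 7 chromosomes, and 3 of them were at 0 in replicate 1. By scaled count, 7 of the 8 were at least 2-fold higher in replicate 2. Tspan33 was not: it was 1.38-fold higher by scaled count and lower by TPM. The label thus holds for 7 of the 8 by scaled count. By TPM, with 1 unit added in each library, Ache also fell below 2-fold, at 1.71.

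G1E is an immortalised mouse line, labelled a Gata1- erythroid progenitor, of strain C57BL/6J, male and 0 day postnatal. Both libraries carry the same labels: total RNA longer than 200 nt, from 1 ng per library, with ERCC spike-in RNA added, no treatment named, and biological replicate numbers 1 and 2. With 1 group of 2 libraries there is no condition to compare, and a difference between these libraries is not a difference between conditions. Intervals of ratios cover counting error only. The deposited credibility intervals of TPM describe the estimate within a single library. Neither kind measures the spread between replicates.

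Red cell precursors mature by building globin and haem, rebuilding their membrane and membrane skeleton, and clearing organelles before they lose the nucleus. GATA1 is a zinc-finger transcription factor that binds short GATA-containing DNA and switches on much of this programme. Cells without GATA1 stop at the progenitor stage, and G1E cells are used as a model of that arrest. Among the 8 genes, Stom, Ache, Tspan33, Btnl10 and Cacna1g encode proteins of the plasma membrane, Tmcc2 encodes a coiled-coil protein with transmembrane domains, Ptp4a3 a phosphatase and Hemgn a nuclear protein.

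The libraries differed as a whole. Replicate 1 held 31649878 estimated counts and replicate 2 held 40597614, of which protein-coding genes took 26.9% and 18.9%. A count of 0 allowed up to 0.0948 and 0.0739 CPM (3 counts scaled to the library total). Spike-in entries held 514 and 10351 counts. Gata1 itself had 798 and 649 estimated counts, 21.96 and 12.51 TPM (transcript level per length, scaled to a fixed sum per library), and a scaled ratio of 0.913 (95% interval 0.822 to 1.01). Reads of Gata1 were thus present in both libraries, and the labels do not say which part of the gene the line lacks. Of markers of other cell types, megakaryocyte genes summed to 26.7 and 16.46 TPM, mast cell and basophil genes to 55.6 and 28.03, granulocyte and macrophage genes to 1.48 and 0.48, fibroblast and endothelial genes to 1.46 and 0.60, and neuron and muscle genes to 4.1 and 1.85. All 12 lymphocyte markers were at 0 in both libraries. Each of the other 5 sums was lower in replicate 2, as was that of 14 reference genes of general use (4520.56 and 2808.56 TPM). TMM is a normalisation that sets the bulk of genes to equal levels. Scaled by TMM, the median log2 ratio was 0.04 over 7 tested megakaryocyte markers and −0.03 over 3 mast cell and basophil markers. Over 2 tested genes each, it was 0.08 for granulocyte and macrophage, −2.21 for fibroblast and endothelial and 0.50 for neuron and muscle markers. The 0.08 is the middle of Adgre1 (3.54) and Cd68 (−3.38), which went opposite ways. The markers called different by the exact binomial test with at least a 2-fold ratio, named after their values were seen, were the macrophage gene Adgre1, higher in replicate 2 (1 and 15 counts), and Gp1ba (32 and 10), Cd68 (17 and 1) and Pdgfra (11 and 0), higher in replicate 1. At 0 in both libraries were 4 of 11 megakaryocyte markers, 4 of 10 mast cell and basophil markers, 4 of 12 granulocyte and macrophage markers, 7 of 11 fibroblast and endothelial markers and 12 of 15 neuron and muscle markers. The highest were Cpa3, a mast cell protease (51.44 and 24.76 TPM), and Pf4, platelet factor 4 (12.77 and 9.78 TPM).

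The DNA around annotated starts is shown for 3 of these genes, because their windows hold the letters that GATA factors are known to bind. Another reason is that Tmcc2 has several starts that differ in level. The sequences are RefSeq promoter windows on GRCm38.p6, running from 250 bases before to 50 bases after an annotated start, 5′ to 3′ on the gene's strand. Capitals mark each match to AGATAA or AGATAG, or to TGATAA or TGATAG, on either strand (TTATCT is AGATAA read on the other strand). The window of the internal RefSeq start of Tmcc2 is chr1:132367899-132368198 (minus strand), and that of one of its upstream starts, where its 3514-nt transcript begins, is chr1:132390269-132390568 (minus strand). The Hemgn window is chr4:46404134-46404433 (minus strand), and the Btnl10 window is chr11:58917658-58917957 (plus strand).
Tmcc2 internal start: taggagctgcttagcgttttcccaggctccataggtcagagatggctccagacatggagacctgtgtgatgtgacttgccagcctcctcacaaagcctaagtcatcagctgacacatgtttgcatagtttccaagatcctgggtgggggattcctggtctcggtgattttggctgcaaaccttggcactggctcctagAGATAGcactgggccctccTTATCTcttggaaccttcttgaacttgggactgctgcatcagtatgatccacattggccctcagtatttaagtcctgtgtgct
Tmcc2 upstream start: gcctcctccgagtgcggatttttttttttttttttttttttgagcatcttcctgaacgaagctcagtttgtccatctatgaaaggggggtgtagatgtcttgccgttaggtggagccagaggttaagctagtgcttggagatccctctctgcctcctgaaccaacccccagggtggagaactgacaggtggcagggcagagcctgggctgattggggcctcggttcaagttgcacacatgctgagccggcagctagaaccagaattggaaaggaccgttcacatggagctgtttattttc
Hemgn: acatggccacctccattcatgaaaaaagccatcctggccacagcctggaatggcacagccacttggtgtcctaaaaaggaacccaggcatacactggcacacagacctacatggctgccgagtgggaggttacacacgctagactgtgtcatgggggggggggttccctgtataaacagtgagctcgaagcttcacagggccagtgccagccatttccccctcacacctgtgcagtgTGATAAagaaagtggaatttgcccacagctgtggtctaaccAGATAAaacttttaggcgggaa
Btnl10: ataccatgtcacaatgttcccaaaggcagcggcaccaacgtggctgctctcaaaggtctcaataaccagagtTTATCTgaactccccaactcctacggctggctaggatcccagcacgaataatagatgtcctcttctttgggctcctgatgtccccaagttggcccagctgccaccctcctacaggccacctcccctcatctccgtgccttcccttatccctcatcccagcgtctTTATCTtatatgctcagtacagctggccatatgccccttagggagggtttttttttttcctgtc

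Windows were matched by symbol for 6 of the 8 genes, 9 windows in all. Of these, 4 held a GATA match, against 29.8% of all 32851 windows of the same length. The Tmcc2 internal window held matches whose first bases lay at positions −52 and −33 from its start, and neither of the other 2 Tmcc2 windows held one. The Hemgn window held matches at −13 and +29 from its RefSeq start (46404183), and the first Btnl10 window at −178 and −14. Both Hemgn matches lie inside the first exon of the annotated downstream transcript, which starts at 46404236 on the minus strand. The upstream Hemgn start (46413506), whose transcript took 70.0% and 77.2% of the count in replicates 1 and 2, had no window. A second Btnl10 window overlaps the first and shares a match. The single windows of Stom, Ache and Tspan33 held none of these letters. CACCC, a motif of Krüppel-like factors, was in 7 of the 9 windows on either strand, against 57.5% of all windows. The E-box words CAGCTG and CAGATG were in 6 of the 9, against 30.6%. These are matches of letters and not measured binding.

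In replicate 2, the TPM of the 8 genes exceeded that of 67.5% (Btnl10) to 95.1% (Ache) of nuclear protein-coding genes, unexpressed ones included. All 8 were at or above 1 TPM there, from 2.35 to 22.43, whereas 5 were in replicate 1. Their summed level was 37.28 TPM in replicate 1 and 81.51 TPM in replicate 2. Ordered by TPM in replicate 2, they ran Ache, Hemgn, Tmcc2, Tspan33, Stom, Cacna1g, Ptp4a3 and Btnl10. By the deposited credibility intervals, Stom could not be separated from Cacna1g, nor Ptp4a3 from Btnl10. In replicate 1 the order was Ache, Tspan33, Hemgn, Tmcc2 and Stom, followed by 3 genes at 0. There the intervals of Ache and Tspan33 overlapped, as did those of Tmcc2 and Stom. The plot of TPM by library shows these levels.

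**Figure D1:**
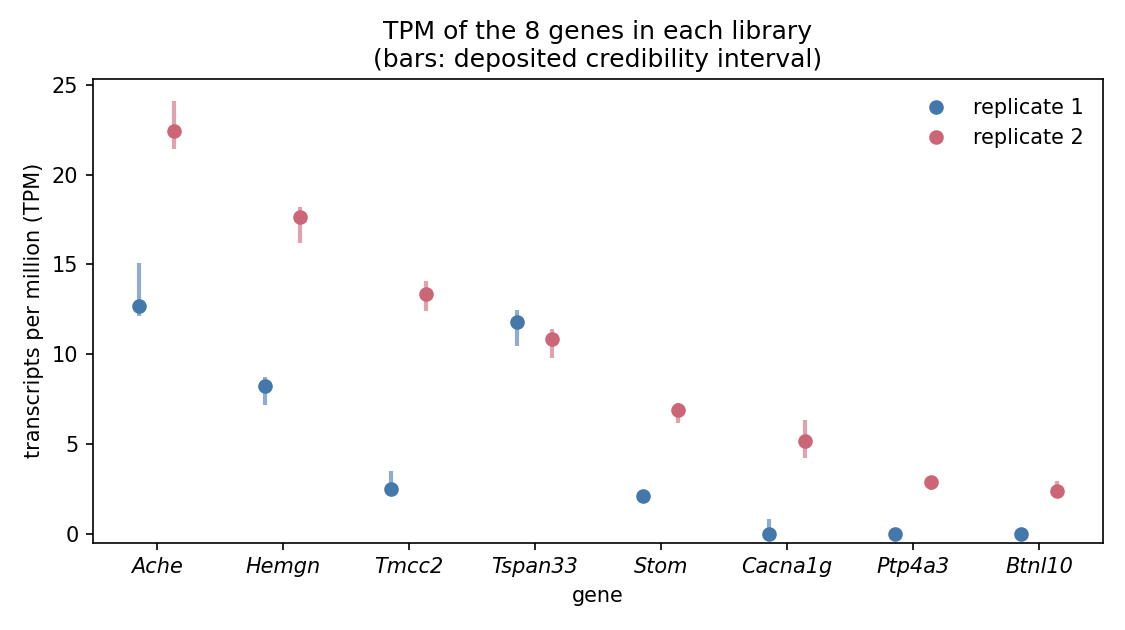
Deposited TPM of the 8 genes (horizontal axis) in replicate 1 (blue) and replicate 2 (red), with bars for the deposited credibility interval. 7 genes lie higher in replicate 2, Tspan33 lies at 11.82 and 10.84 TPM with overlapping bars, and Cacna1g, Ptp4a3 and Btnl10 lie at 0 in replicate 1.

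Stom (ENSMUSG00000026880.10) encodes stomatin, an integral protein of lipid rafts in the red cell membrane, and sits at chr2:35313986-35336976 on the minus strand (GRCm38). It had 119 estimated counts in replicate 1 and 540 in replicate 2, or 2.10 and 6.89 TPM. Its ratio, scaled by TMM, was 5.10 (4.17 to 6.27). The gene has 1 annotated transcript of 2787 nt, so all of its count fell on it. Of its relatives, Stoml2, a mitochondrial member of the family, had 738 and 584 counts (ratio 0.889) and Stoml1 had 25 and 31 (1.39).

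Ache (ENSMUSG00000023328.10) encodes acetylcholinesterase, which cleaves acetylcholine and is anchored at the red cell surface through a lipid (GPI) tail. The gene lies at chr5:137287519-137294466 on the plus strand. It had 673 and 1819 estimated counts, 12.7 and 22.43 TPM, and a scaled ratio of 3.04 (2.78 to 3.32). It had the highest TPM of the 8 in both libraries, although its credibility interval overlapped that of Tspan33 in replicate 1. The related esterase Bche and the anchor genes Colq and Prima1 were at 0 in both libraries.

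Tspan33 (ENSMUSG00000001763.10) encodes a tetraspanin of the TspanC8 group, which carries the protease ADAM10 to the cell surface. It lies at chr6:29694222-29718559 on the plus strand. It had 524 and 643 estimated counts and a scaled ratio of 1.38 (1.23 to 1.55), below 2-fold. By TPM it stood at 11.82 (10.5 to 12.5) in replicate 1 and 10.84 (9.76 to 11.4) in replicate 2, so that its direction turned with the scale. Over protein-coding genes alone, its TPM was 58.3 and 83.2. Adam10 had a scaled ratio of 0.912.

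Btnl10 (ENSMUSG00000020490.12) encodes a butyrophilin-like membrane protein of the immunoglobulin superfamily and lies at chr11:58917908-58927158 on the plus strand. It was at 0 in replicate 1 and at 296 estimated counts, or 2.35 TPM, in replicate 2. With the floor of 3 counts put in for replicate 1, its ratio was 111, and the exact interval of the ratio reached down to 89.6. The deposited credibility interval of its TPM in replicate 1 was 0.0164 to 0.271. Ermap and Btn1a1, other butyrophilin-family genes, differed far less: Ermap had 4268 and 5235 counts (1.38) and Btn1a1 had 188 and 233 (1.39).

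Cacna1g (ENSMUSG00000020866.13) encodes the pore subunit of a T-type calcium channel, a voltage-gated channel that opens at weak depolarisation. It lies at chr11:94408391-94474198 on the minus strand. It had 0 and 266 estimated counts and 0 and 5.14 TPM. Its ratio with the floor put in was 99.6, with an exact interval that reached down to 80.4. The other T-type subunit genes, Cacna1h and Cacna1i, were at 0 in both libraries.

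The level of Cacna1g depends on how its reads were divided. Of 16 annotated transcripts, 3 received counts in replicate 2. A long coding transcript of 7981 nt took 186.22 counts and 0.81 TPM, and a short non-coding transcript of 749 nt took 79.76 counts and 4.34 TPM, or 84.33% of the TPM of the gene. The deposited 0.81 TPM of the long transcript lay above its own credibility interval, which ended at 0.485. Had all 266 counts been placed on the long transcript, the TPM would have been 1.16. The place of Cacna1g between Stom and Ptp4a3 by TPM therefore rests on the short transcript.

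Tmcc2 (ENSMUSG00000042066.11) encodes a transmembrane and coiled-coil protein and lies at chr1:132356315-132391281 on the minus strand. It had 155 and 1096 estimated counts, 2.46 and 13.35 TPM, and a scaled ratio of 7.94 (6.71 to 9.46). Its relatives Tmcc1 (210 and 138 counts, ratio 0.738) and Tmcc3 (226 and 255, ratio 1.27) stayed within 2-fold.

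The difference in Tmcc2 lay on transcripts from the internal start. The 2 transcripts from the upstream starts (3410 and 3514 nt) held 85.65 estimated counts together in replicate 1 and 69.08 in replicate 2, a ratio of 0.906 (0.647 to 1.25). The 2 from the internal start (2769 nt spliced, 4004 nt with a retained intron) held 67.89 and 1026.92, a ratio of 16.99 (13.3 to 22.0). The intervals of these ratios do not overlap, but they take the assigned counts as given and leave out uncertainty in assigning reads to transcripts. The internal start thus took 43.8% of the count of the gene in replicate 1 and 93.7% in replicate 2. It lies 23394 nt downstream of the start of the 3410-nt transcript, and the RefSeq start of the window printed above lies 61 nt upstream of it. The spliced internal transcript alone stood at 0.64 TPM (0.0912 to 0.955) in replicate 1 and 11.47 TPM (10.3 to 11.9) in replicate 2. The 3410-nt upstream transcript stood at 1.06 TPM (0.562 to 1.40) and 0.38 TPM (0.201 to 0.620), with overlapping intervals.

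The share of a gene's TPM on 1 transcript moved by at least 50 points between the libraries in 119 of 5669 genes (2.10%). The 5669 were genes of any type with more than 1 transcript and at least 100 counts in each library. The comparison was chosen after the values of Tmcc2 were seen. The median gene moved by 12.19 points. Tmcc2 moved by 59.85 points, which 0.953% of these genes reached, and Tspan33 by 52.59 points, which 1.55% reached. The Tspan33 shift lay mostly between 2 spliced transcripts that differ by few bases and could not be told apart firmly. Together they took 86.08% of its TPM in replicate 1 and 90.63% in replicate 2. Ache moved by 17.94 points and Hemgn by 7.08, shifts that 30.6% and 71.4% of the genes reached.

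**Figure D2:**
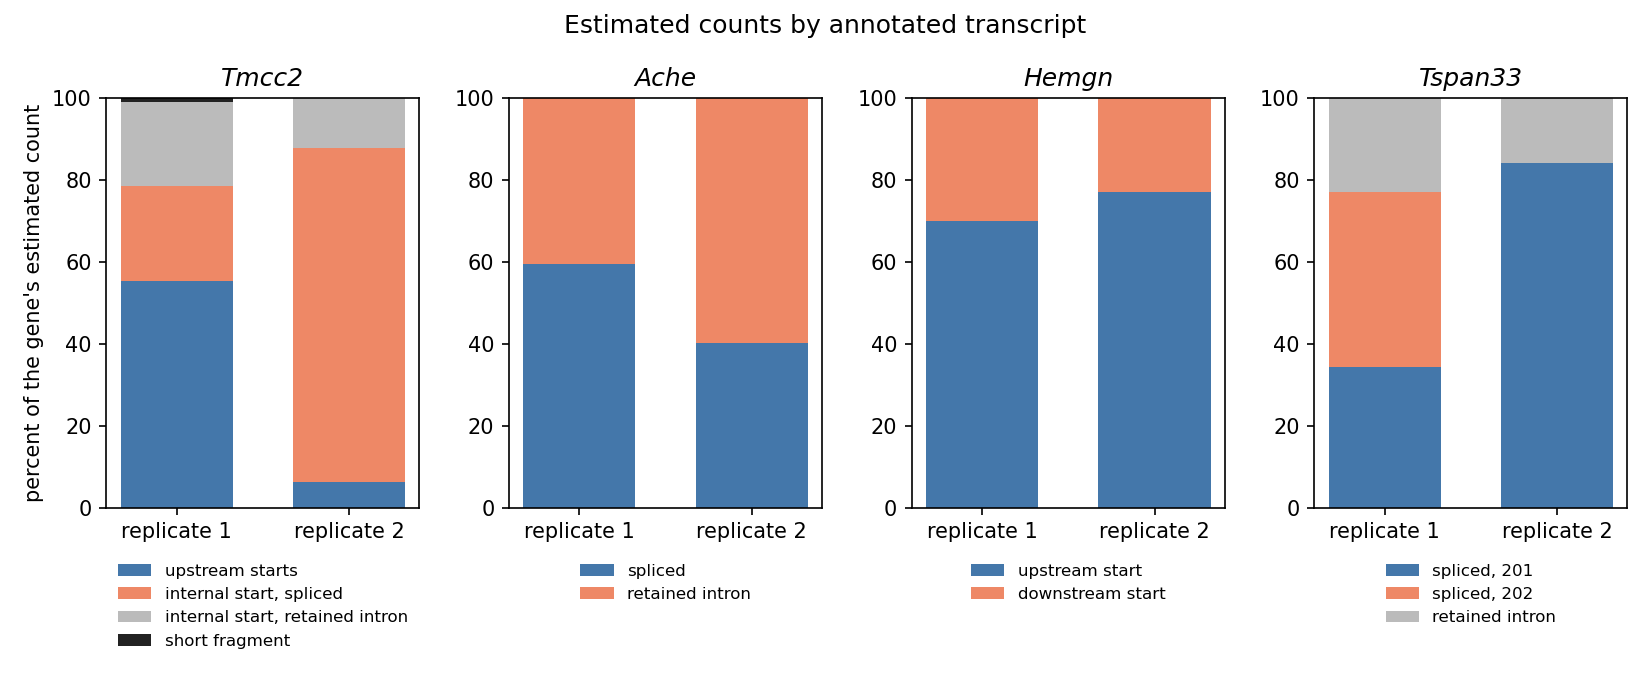
Percent of the estimated count of each gene (vertical axis) on each group of annotated transcripts in replicate 1 and replicate 2, for Tmcc2, Ache, Hemgn and Tspan33. The upstream starts of Tmcc2 take 55.3% in replicate 1 and 6.30% in replicate 2, and the retained-intron transcript of Ache takes 40.6% and 59.8%.

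Ache counts were shared between a spliced transcript and one that keeps an intron. The spliced transcript (2186 nt) held 399.98 estimated counts in replicate 1 and 730.52 in replicate 2, a ratio of 2.05 (1.81 to 2.32). The retained-intron transcript (3687 nt) held 273.02 and 1088.48, a ratio of 4.48 (3.92 to 5.13). Both forms were thus higher in replicate 2, and the retained-intron form took 40.6% of the count in replicate 1 and 59.8% in replicate 2. Over 3355 protein-coding genes with a retained-intron transcript and at least 100 counts in each library, that share was 10.97% and 11.4% when pooled. Of these genes, 2.06% shifted up as much as Ache. The comparison was set up with the shift of Ache known. The share went down in Tmcc2, from 20.5% to 12.3%, and in Tspan33. For Ache, the deposited TPM intervals of the retained-intron form also lay higher in replicate 2 (3.02 to 3.93, then 9.47 to 10.8). Those of the spliced form overlapped (4.35 to 9.47, then 8.77 to 12.7).

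The Tspan33 transcripts could not be told apart firmly. A spliced transcript of 1994 nt had 179.34 and 540.43 estimated counts, and another of 1977 nt had 224.43 and 0. These transcripts differ by 12 nt at the first exon, 3 nt at an internal exon and 2 nt at the last exon, and their credibility intervals overlapped in replicate 1. Together they gave a ratio of 1.503 (1.32 to 1.71). The retained-intron transcript had 120.23 and 102.57 counts, a ratio of 0.958 (0.734 to 1.26), and its share of the count went from 22.94% to 15.95%.

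Ptp4a3 (ENSMUSG00000059895.8) encodes PRL-3, a small phosphatase held at membranes by a lipid anchor, and lies at chr15:73723145-73758766 on the plus strand. It had 0 and 257 estimated counts and 0 and 2.85 TPM. Its ratio with the floor put in was 96.2, with an exact interval that reached down to 77.7. Its count was split over a pair of coding transcripts, at 175.86 and 81.14. The other PRL phosphatase genes were far more abundant, with ratios near 1: Ptp4a1 had 5719.82 and 4795.23 counts (ratio 0.941) and Ptp4a2 had 6770 and 5789 (0.960).

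Hemgn (ENSMUSG00000028332.9) encodes hemogen, a nuclear protein of blood progenitors and erythroid cells, and lies at chr4:46393989-46413506 on the minus strand. It had 386 and 1146 estimated counts, 8.20 and 17.66 TPM, and a scaled ratio of 3.33 (2.97 to 3.75). The transcript from the upstream start had 270.21 and 884.16 counts (3.67). The transcript from a start 9270 nt downstream, which falls within the window printed above, had 115.79 and 261.84 (2.54). Both estimated counts were higher in replicate 2. The deposited TPM intervals of the downstream form overlapped between the libraries (0.606 to 7.83, then 1.82 to 8.44). Those of the upstream form did not (0.000216 to 7.19, then 8.49 to 15.6), but the first was wide.

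Of 11902 tested genes, 5.12% were called higher in replicate 2 and 2.20% higher in replicate 1 (7.32% in either direction), at a Benjamini-Hochberg adjusted p under 0.05 in an exact binomial test on the counts and at least a 2-fold ratio. The median log2 ratio was 0.01. Of the 8 genes, 7 lay past that line, which follows from how they were chosen. Scaling to total counts moved the median of all genes to −0.52 and the calls to 396 higher in replicate 2 and 1021 higher in replicate 1, against 609 and 262 with TMM. The 7 genes also lay higher in replicate 2 under that scaling. Scaling to the spike-in counts moved that median to −4.49 and put 5 of the 8 genes lower in replicate 2, Stom at 0.225, Ache at 0.134, Tspan33 at 0.0609, Tmcc2 at 0.351 and Hemgn at 0.147, while Btnl10, Cacna1g and Ptp4a3 stayed higher. All 8 genes had whole-number counts with a deposited posterior SD of 0 in both libraries.

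Ranked by ratio among the 7574 protein-coding genes that averaged 100 or more counts per library, Btnl10 was at place 2, Cacna1g at 4 and Ptp4a3 at 5. Of the ranked genes 5 were at 0 in replicate 1: these 3, the histone gene Hist2h3c1 and Rsad2. None was at 0 in replicate 2. Tmcc2 stood at 31, Stom at 37, Hemgn at 54 and Ache at 60, while Tspan33 stood at 456. Alas2, the erythroid enzyme that starts haem synthesis, was the neighbour above Tmcc2 with 56 and 414 counts. Abcb6, a porphyrin transporter, was the neighbour below Ache with 141.93 and 378.63 counts. Kcnn4, the calcium-activated potassium channel of red cells, was the neighbour below Hemgn with 62 and 180 counts. The other neighbours in the ranking were Gm16867 above Btnl10, Endod1 below Tmcc2, Rnf123 above Hemgn and Wdr90 above Ache. Atg4d and Arhgef39 stood on either side of Stom, and Hormad2 and Laptm4a on either side of Tspan33. Of the 8 genes, Ache (3.04) was the nearest above 2-fold and Tspan33 (1.38) the one below it, with many genes between them in the ranking.

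**Figure D3:**
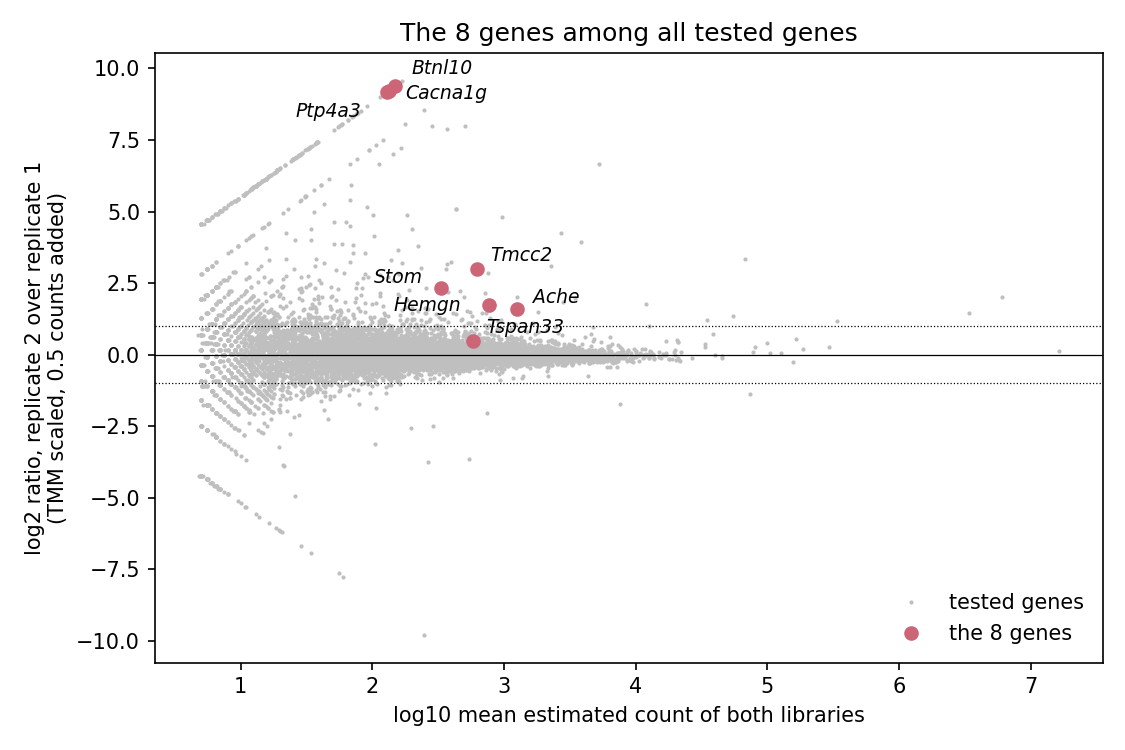
Log2 ratio of replicate 2 over replicate 1 (vertical axis, TMM scaled, 0.5 counts added) against the log10 mean estimated count (horizontal axis) for 11902 tested genes (grey) and the 8 genes (red), with dotted lines at 2-fold. Btnl10, Cacna1g and Ptp4a3 lie on the upper edge formed by genes at 0 in replicate 1, and Tspan33 lies between the dotted lines, below 2-fold.

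Other genes of red cell maturation were divided. They were put in 4 lists with earlier results of these data known. The counts below are therefore a description, and no list was tested as a set. Of 100 such genes tested in 4 lists, which leave out the 8 genes, 25 were called higher in replicate 2 and 0 higher in replicate 1, against 5.12% and 2.20% of all tested genes. Their median log2 ratio was 0.30, and 73 of the 100 lay above the median of all genes. With scaling to total counts, 19 were called higher in replicate 2 and 1 higher in replicate 1. The spread within the lists was wide, and 75 of the genes were not called.

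Red cell membrane genes gave 9 calls among 30. Aqp1, the water channel, had 1 and 496 counts, or 557-fold (99.5 to 22047). Dmtn (dematin), an actin-bundling protein of the membrane skeleton, had 4 and 1012 (284), Slc43a1, an amino acid transporter, had 3 and 732 (274), and Slc4a1, the anion exchanger band 3, had 115 and 10387 (101). Xk, a membrane protein of the Kell complex, did not follow, with 6979 and 5571 counts (0.897). Nor did Cd59a, with 35 and 27 (0.866).

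Globin, haem and iron genes gave 9 calls among 20, with a median log2 ratio of 0.80. The ratio was 28.5 for Hbb-bt, 19.0 for Hbb-bs, 15.4 for Hba-a2 and 8.55 for Hba-a1, adult globin genes whose near-identical copies make the split between members of a pair uncertain. Cpox, a haem synthesis enzyme, had 20810 and 16630 counts (0.898), and Slc25a38 had 364 and 304 (0.938).

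Clearance genes and late enzymes gave 5 calls among 25. Trim58, a ubiquitin ligase of enucleating erythroblasts, had 0 and 155 counts. Ypel4, a small zinc-binding protein, had 1 and 80 (89.8), and Isg20, an exonuclease, had 5 and 121 (27.2). Ube2o, which ubiquitinates proteins for removal in reticulocytes, had 180 and 429 (2.68). At the low end, Pklr, the red cell pyruvate kinase, had 577 and 362 (0.705), and Gabarapl2 had 175 and 128 (0.821).

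Erythroid regulators gave 2 calls higher in replicate 2 among 25, with a median log2 ratio of 0.02. With 5.12% of all tested genes called so, these calls are no result about the regulators as a list. The 2 called were Sox6, a transcription factor of definitive erythroid cells (204 and 1307 counts, 7.20), and E2f2, a cell cycle regulator of late erythroblasts (424 and 1030, 2.73). Foxo3 (1.43) and Zfpm1 (1.34) came next. Myc, which falls as erythroid cells mature, had 3215 and 2254 counts (0.787), and Spi1, the myeloid factor PU.1, had 727 and 516 (0.797). Neither reached 2-fold.

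Relatives and partners of the 8 genes gave 1 call higher in replicate 2 and 0 higher in replicate 1 among 20 tested genes, a share near the 5.12% and 2.20% of all tested genes. That gene was Cd82, a tetraspanin, with 1 and 41 counts (46.0, 7.81 to 1863). Cd81 (1.18), Tspan14 (0.962) and Tspan15 (0.902), other tetraspanins, lay near 1. The 20 had a median log2 ratio of 0.10. Reference genes of general use gave 0 calls in either direction among 14, with a median log2 ratio of 0.10.

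Genes next to the 8 on the chromosome were compared in the same way. Of 16 flanking genes, 9 were tested, 1 was called higher in replicate 2 and 0 higher in replicate 1, and 5 were at 0 in both libraries. Over all tested genes 5.12% and 2.20% were called, so 1 call among 9 is no result about the flanking genes. The called gene was Trmo, 4552 nt downstream of Hemgn on the same strand, with 45 and 83 counts (2.07). Ufsp1, which lies 163 nt from Ache on the same strand, had 73 and 89 counts (1.37). Around Btnl10, Rnf187 and Zfp39 had ratios of 0.994 and 0.972. Gsn, beside Stom, had 61 and 98 counts (1.80). Tnpo3 and Smo beside Tspan33 had ratios of 0.961 and 0.836, Dstyk beside Tmcc2 1.21 and Anp32b beside Hemgn 1.09. Gpr20 and Mroh5, which flank Ptp4a3, were at 0 in both libraries. Abcc3, beside Cacna1g, had 1 and 0 counts and Spata20 was at 0.

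**Figure D4:**
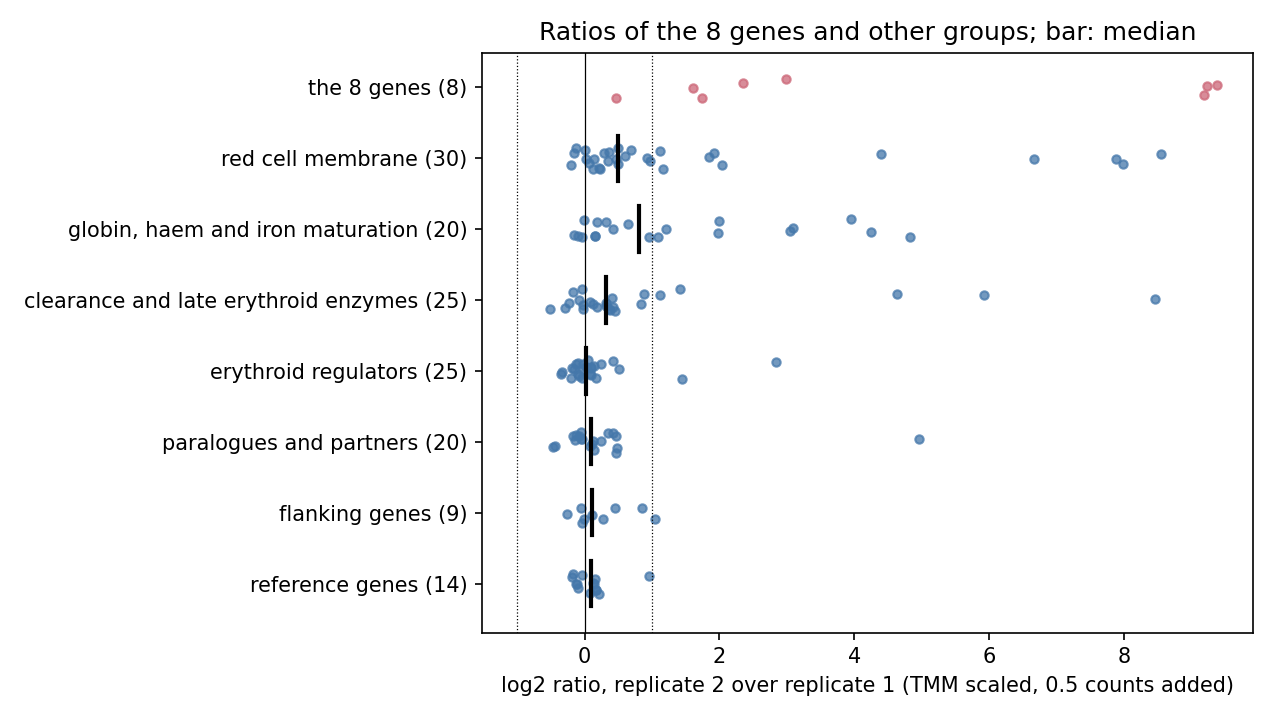
Log2 ratio of replicate 2 over replicate 1 (horizontal axis, TMM scaled, 0.5 counts added) for each tested gene (points) of the 8 genes and 7 other groups, with the number of genes in brackets, a black bar at each other group's median and dotted lines at 2-fold. The medians of the membrane (0.49) and globin, haem and iron (0.80) groups lie right of those of the regulators (0.02) and the relatives (0.10).

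The libraries also differed in spike-in counts, in the protein-coding share and in the summed markers given above, and the part of these in the ratios of the 8 genes was not tested. In bulk RNA, more cells of a type and more RNA per cell cannot be told apart.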

How the data were processed

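Tables per gene and per transcript were read for each of 2 total RNA libraries. Their columns, per the file headers, hold the authors' expected counts (estimated, not normalised), TPM, FPKM, bounds of TPM credibility intervals (handled as a signal) and, per transcript, its percent of the gene's TPM. Deposited records name mm10 and GENCODE M4. The aligner and the quantifier were not given in the sources used here. For names and positions GENCODE M21 (GRCm38) was used, which matched 42462 of 43346 genes. The 97 spike-in entries and 26248 entries named by numbers (3 and 7 counts) stayed out of the tests.

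Counts, rounded to whole numbers, were compared between the libraries gene by gene with an exact binomial test (two-sided) against TMM effective library sizes (edgeR 4.0.16, R 4.3.3) for 11902 genes that summed to at least 10 counts. Calls needed a Benjamini-Hochberg adjusted p under 0.05 and 2-fold. Such a p compares these libraries, not conditions. Ratios have exact Clopper-Pearson 95% intervals, which for transcripts take the assigned counts as given. The test was checked on simulated data with counting error only, which hold no spread between replicates. The labels call the libraries biological replicates without naming separate cultures. Python 3.11.15, SciPy 1.17.1 and DESeq2 1.42.0 (size factors only) were also used.

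Members and lists were chosen with earlier results of these data known. Named were the 8 genes, their rank neighbours, part of their relatives and flanking genes, and the ends of each maturation list. Alternatives were other scalings, filters, estimates and folds.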

Additional observations from a re-analysis of the deposited data

How the results depend on the processing

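The ratios of all 8 genes stayed within their intervals with DESeq2 size factors or scaling to protein-coding counts. Scaling to total counts turned Tspan33 to 0.957, and its ratio was 0.924 by TPM, 0.930 by posterior mean TPM and 0.992 by FPKM, each with 1 unit added. By the same measures, the ratio of Ache was 1.71, 1.63 and 1.81, below 2-fold, and that of Hemgn 2.03, 2.03 and 2.12. The 7 genes other than Tspan33 stayed higher in replicate 2, with smaller ratios than by scaled count. Scaling to total counts gave 396 genes higher in replicate 2 and 1021 higher in replicate 1 (609 and 262 with TMM). It also gave 1 other maturation gene higher in replicate 1. Scaling to spike-ins, which moved the median log2 ratio of all genes to −4.49, turned Stom to 0.225, Ache to 0.134, Tspan33 to 0.0609, Tmcc2 to 0.351, its internal start to 0.751 and Hemgn to 0.147, while Btnl10, Cacna1g and Ptp4a3 stayed higher in replicate 2, at 4.90, 4.40 and 4.25. It gave 36 and 11608 calls over all genes, 5 and 89 among the other maturation genes, and 0 and 19 among relatives. The cause was not tested. A minimum of 50 counts, with fewer genes tested, gave 360 and 83 calls, and 0 higher among relatives. A 4-fold line gave 364 and 145 calls, and 15 maturation genes higher in replicate 2. No paired analysis was possible because the labels give 1 group, and leaving out a library leaves no comparison. Depth limits the 3 genes at 0 in replicate 1 to lower bounds.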
